A study of Mus musculus with 17 samples.

Results

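Genes of dendritic cell subsets, 10 of the 21931 genes of the deposited table, were followed in distant MC38 tumors of control and cryoablated mice. They were chosen by name: the transcription factors Batf3, Irf8 and Zbtb46, the growth factor receptor Flt3, the surface receptors Xcr1, Clec9a and Cd209a, and Ccr7, Fscn1 and Ccl22 of mature dendritic cells. All 10 were in the table and all 10 passed the filter on low counts.

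Dendritic cells take up antigen, carry it to lymph nodes and present it to T cells. Conventional type 1 dendritic cells (cDC1) depend on BATF3 and IRF8, display XCR1 and CLEC9A and are known for presenting tumor antigen to CD8 T cells. Type 2 cells (cDC2) mainly prime CD4 T cells, and both kinds need FLT3 signaling and express Zbtb46. After maturation, a dendritic cell gains CCR7, follows its ligands to the lymph node, remodels its actin with fascin and secretes CCL22.

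MC38 is a mouse colon cancer line, which the study placed under the skin on both sides of wild-type (WT) C57BL/6J mice aged 6 to 8 weeks. The cryoablation group (n = 8 tumors) had the tumor of one side frozen on day 7, with 2 freezing cycles of 20 s in the labels, and the unfrozen tumor of the other side was taken 5 days after that. The control group (n = 9 tumors) carried the same implants, and its labels give day 5 as well and no freezing. The study's text gives a longer freezing and the group sizes the other way round, and the labels were followed here. Bulk RNA of whole tumors was sequenced although the labels describe the samples as MC38 cells, so that each value averages tumor, stromal and immune cells, and fewer dendritic cells cannot be told apart from less RNA per cell. The labels number the tumors without saying which mouse or cage each came from, so p values measure the spread between these tumors.

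Total counts ranged from 13524899 to 17898672 per tumor, and 3 counts corresponded to between 0.168 and 0.222 CPM, the count scaled to the library total. Levels below are CPM normalized by the trimmed mean of M values (TMM) unless FPKM is named. A few libraries stood apart. Cryoablation 2, 4 and 5 had the most signal from short genes, by an index that is the median log2 deviation of genes under 2000 bases minus that of genes over 6000 bases. The index was 0.944, 0.865 and 1.25 in them and between -0.712 and 0.523 in the other tumors, and its correlation with the first principal component (63.99% of the variance) was -0.983. Control 4 had the highest summed level of 9 of 15 marker lists, among them T cells, NK cells, B cells and all leukocytes. Values without them stand in the plot of fold changes for the 10 genes, and in the text for each named gene of the dendritic cell lists whose direction they turned.

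Expression of the 10 genes was compared between cryoablation and control with edgeR's quasi-likelihood test. None of the 10 passed an adjusted p under 0.05 (smallest 0.728), and 0 of 10 had an unadjusted p under 0.05, where 639 of 13005 genes (4.91%) did. By edgeR, 0 of the 13005 genes passed the adjusted threshold (0%). On the same genes, DESeq2 (chosen after seeing the data) and edgeR's exact test also gave 0 of the 10 at an unadjusted p under 0.05, beside 6.77% and 5.92% of all genes. Limma voom with sample weights gave 3 (Flt3, Cd209a and Ccr7, each lower in cryoablation), where 10.1% of all genes were past that threshold and 5.36% were lower. Without cryoablation 2, 4 and 5, edgeR gave 3 of the 10 (Batf3, Ccr7 and Ccl22, each lower in cryoablation, smallest adjusted p 0.941), beside 2.45% of all genes and 1.15% lower. Without control 4 as well it gave 2 (Batf3 and Ccr7, both lower), beside 1.85% and 0.848%. Cryoablation 2, 4 and 5 were the 3 highest cryoablation tumors for Batf3, Ccr7 and Ccl22. Leaving them out therefore lowers the cryoablation level of these genes, and these counts are no separate evidence of a decrease. Of the 10 log2 fold changes, 7 were below 0 and 3 above, with a median of -0.30. Over all genes tested, 6759 (52%) were below 0 and the median was -0.01. Without control 4 the median of the 9 members still tested was -0.07, with 6 below 0. Without cryoablation 2, 4 and 5 the median of the 10 was -0.69, with 8 below 0. The control and cryoablation ranges overlapped for each of the 10, as they did for every gene tested, since 0% had groups that did not overlap.

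**Figure D1:**
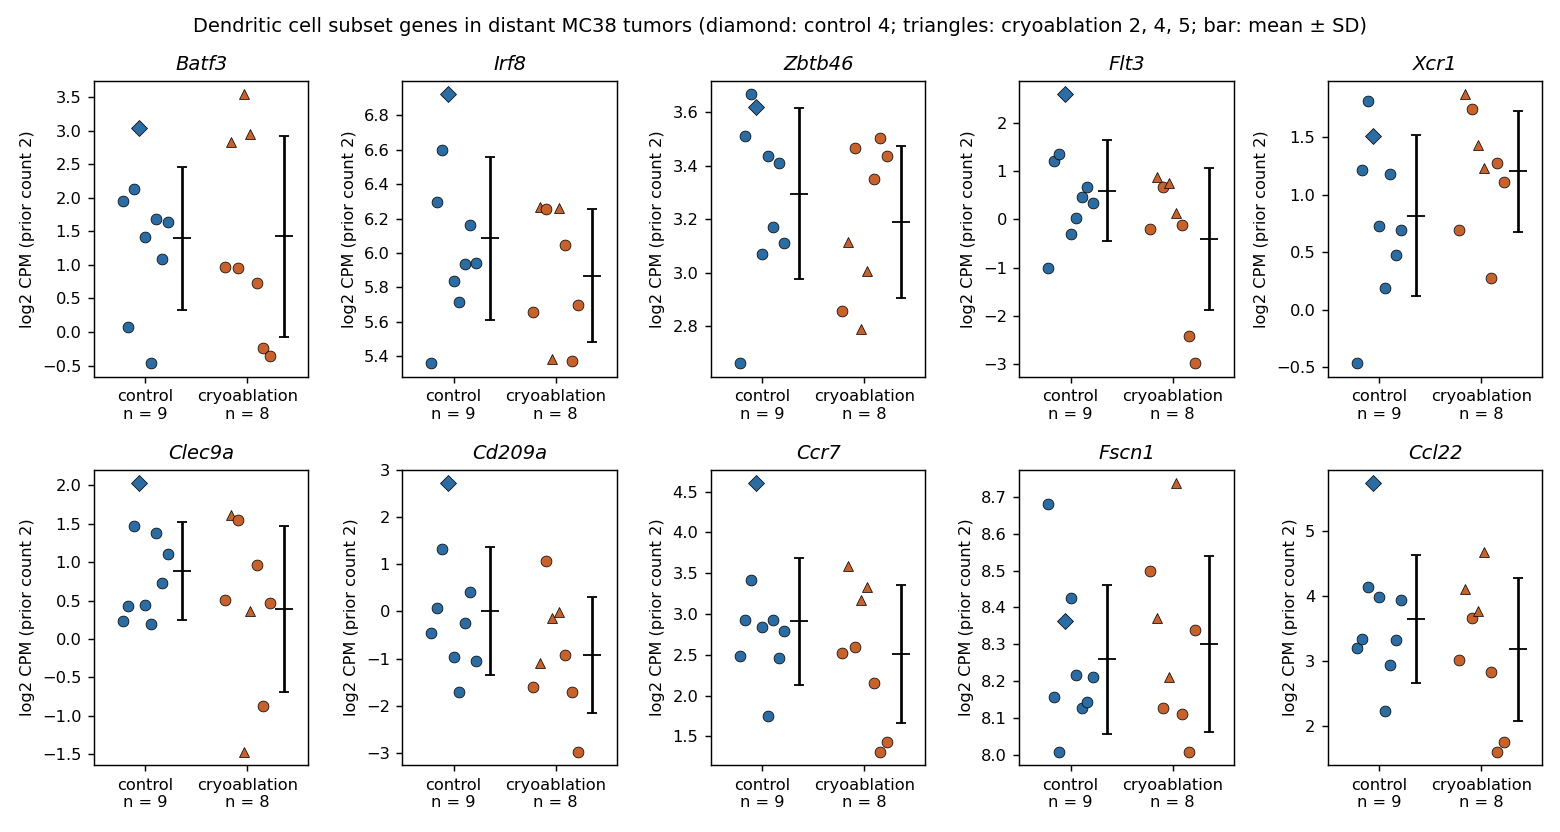
Level of each of the 10 genes in each tumor, as log2 CPM with a prior count of 2 (y axis, a separate scale per panel), for 9 control (blue) and 8 cryoablation (orange) tumors, with the mean and SD as a black bar beside each group. The groups overlap in every panel, control 4 (diamond) is the highest tumor for 6 genes, and cryoablation 2, 4 and 5 (triangles) are 3 of the 4 highest for Batf3.

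Batf3 (ENSMUSG00000026630) encodes a leucine zipper factor of the AP-1 family that cDC1 need to develop. Its level in the control tumors was 0.598 CPM at the lowest, 2.98 at the median and 8.09 at the highest, and in the cryoablation tumors 0.656, 1.82 and 11.5 CPM. The cryoablation tumors split into cryoablation 2, 4 and 5, at 6.97, 11.5 and 7.62 CPM, and the other 5, at no more than 1.83 CPM. The cryoablation mean was 4.08 ± 4.06 CPM (SD, n = 8) against 3.13 ± 2.21 CPM (SD, n = 9) in control. The log2 fold change was 0.36 (SE 0.57, 95% interval -0.84 to 1.56) with p = 0.962 in the exact permutation test. Without cryoablation 2, 4 and 5 it was -1.26 (SE 0.51, edgeR adjusted p = 0.941), and without control 4 as well it was -0.94 (SE 0.44, edgeR adjusted p = 0.982). With a correction for each tumor's trend over gene length it was 0.02 (SE 0.48). The direction for Batf3 thus differed with the tumors included, and the short-gene index was highest in the 3 tumors that decided it. Its part in the result was not tested beyond these values.

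Irf8 (ENSMUSG00000041515) encodes an interferon regulatory factor that specifies cDC1 and also acts in monocytes and B cells. Its level ranged from 40.9 to 121 CPM in control (median 61.3) and from 41.2 to 76.8 CPM in cryoablation (median 58.9). The medians differed little, the cryoablation group had 4 of 8 tumors under the median of control, and the 3 highest tumors were control 4, 3 and 2. On the log2 scale the fold change was -0.24 (SE 0.20, 95% interval -0.66 to 0.17; exact permutation p = 0.319).

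Zbtb46 (ENSMUSG00000027583) encodes a zinc finger factor that marks conventional dendritic cells and is also made by endothelial cells. Its level was 6.20 CPM at the lowest, 10.5 at the median and 12.6 at the highest in control, and 6.79, 9.30 and 11.2 CPM in cryoablation. It varied less than Batf3 and Irf8, at 9.90 ± 2.07 CPM in control (SD, n = 9) and 9.15 ± 1.78 CPM in cryoablation (SD, n = 8). Cryoablation differed from control by a log2 fold change of -0.11 (SE 0.15, 95% interval -0.43 to 0.21; exact permutation p = 0.483), and it was 0.01 without cryoablation 2, 4 and 5.

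Windows around a RefSeq start are shown for Batf3 and Ccl22, whose levels moved together across tumors. That of Zbtb46, the one gene of the 10 whose window held a match, is shown too. Each runs 5' to 3' on the gene's strand, from 250 bases before the RefSeq start of transcription to 50 after it, in GRCm38.p6: Batf3 at chr1:191098164-191098463 (plus strand), Ccl22 at chr8:94745434-94745733 (plus strand) and Zbtb46 at chr2:181424339-181424638 (minus strand). Capitals mark the match to the AP-1 motif TGANTCA.
Batf3: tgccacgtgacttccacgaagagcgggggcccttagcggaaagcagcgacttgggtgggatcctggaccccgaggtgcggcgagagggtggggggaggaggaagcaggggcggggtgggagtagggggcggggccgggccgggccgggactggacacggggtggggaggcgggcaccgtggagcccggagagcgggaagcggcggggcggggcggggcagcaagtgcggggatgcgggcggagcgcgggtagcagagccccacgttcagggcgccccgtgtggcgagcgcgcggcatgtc
Ccl22: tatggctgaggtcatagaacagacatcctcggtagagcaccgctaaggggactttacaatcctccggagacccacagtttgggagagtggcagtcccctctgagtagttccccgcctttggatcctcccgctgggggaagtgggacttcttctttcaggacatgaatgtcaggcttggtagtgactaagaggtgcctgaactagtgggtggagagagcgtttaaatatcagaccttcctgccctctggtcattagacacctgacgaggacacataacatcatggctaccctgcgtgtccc
Zbtb46: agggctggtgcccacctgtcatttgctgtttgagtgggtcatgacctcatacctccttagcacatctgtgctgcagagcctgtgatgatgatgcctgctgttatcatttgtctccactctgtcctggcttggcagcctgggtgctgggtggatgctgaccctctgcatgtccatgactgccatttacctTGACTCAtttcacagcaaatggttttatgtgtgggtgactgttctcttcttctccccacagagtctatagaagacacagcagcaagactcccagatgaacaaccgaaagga

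The RefSeq table held such windows for 9 of the 10 genes (10 windows, as Irf8 has a pair of starts) and none for Ccr7. On either strand, TGANTCA, which reads alike on both, was in 1 of the 10 windows, 61 bases before the start listed for Zbtb46. It was in 7.81% of 32851 promoters of the same length. The bases just before the listed Zbtb46 start read like the end of an intron, so this window may not be a promoter. Use of that start in these tumors was not tested. The interferon-stimulated response element core (GAAA, any 2 bases, GAAA) was in 0 of the 10 and in 3.44% of all promoters. The NF-kappaB motif (GGGA, any 2 bases, TTCC) was in 0 of the 10 and in 1.47% of all. These are letter matches in a window of 300 bases, and no binding was measured.

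Flt3 (ENSMUSG00000042817) encodes the receptor tyrosine kinase that FLT3 ligand engages to expand and sustain dendritic cells. Its level was 0.373 CPM at the lowest, 1.26 at the median and 5.89 at the highest in control, and 0, 0.881 and 1.72 CPM in cryoablation. Control 4 was the highest tumor, with 91 counts, and cryoablation 7 and 8 were the lowest, with 1 and 0 counts, below the 3 counts taken as the floor. Its log2 fold change was -1.01 (SE 0.59, 95% interval -2.26 to 0.24; exact permutation p = 0.129), and without control 4 it was -0.56 (SE 0.54). By limma voom with sample weights it was -2.22 (SE 0.70, limma adjusted p = 0.466).

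Xcr1 (ENSMUSG00000060509) encodes the receptor by which cDC1 sense the chemokine XCL1 from NK and CD8 T cells. Its level was 0.597 CPM at the lowest, 1.53 at the median and 3.39 at the highest in control, and 1.08, 2.25 and 3.53 CPM in cryoablation. Above the median of control were 6 of 8 cryoablation tumors, although the ranges nearly coincide. Cryoablation over control gave a log2 fold change of 0.33 (SE 0.30, 95% interval -0.30 to 0.97; exact permutation p = 0.223), and it stayed above 0 in each of the 26 alternatives.

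Clec9a (ENSMUSG00000046080) encodes the cDC1 receptor for actin exposed on dead cells, which helps present their antigens. Its level was 1.02 CPM at the lowest, 1.53 at the median and 3.95 at the highest in control, and 0.234, 1.27 and 2.93 CPM in cryoablation. The lowest tumors were cryoablation 4 and 7, at 0.234 and 0.422 CPM, outside the control range. Its log2 fold change was -0.35 (SE 0.41, 95% interval -1.21 to 0.50; exact permutation p = 0.265), the opposite sign to Xcr1. The table lists Clec9a as overlapping Clec1b, which had at most 15 counts in a tumor, and whether counting used the strand is not given in the sources used here.

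The counts of Xcr1 and Clec9a, 2 markers of the same cell, diverged most in a pair of cryoablation tumors. Cryoablation 4 had 33 counts of Xcr1 and 3 of Clec9a, and cryoablation 7 had 38 and 7. Clec9a made up 8.33% and 15.6% of the summed counts of both genes in these 2, and between 34.3% and 63.6% in the other 15 tumors. Cryoablation 8 had 34 counts of Xcr1 and 21 of Clec9a while Flt3 and Cd209a both had 0.

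Cd209a (ENSMUSG00000031494) encodes a C-type lectin found on cDC2 and on dendritic cells derived from monocytes. Its level was 0.179 CPM at the lowest, 0.712 at the median and 6.47 at the highest in control, and 0, 0.371 and 1.97 CPM in cryoablation. It was the sparsest of the 10, with at most 3 counts in 4 of 17 tumors, against 100 counts in control 4. The log2 fold change was -1.29 (SE 0.72, 95% interval -2.80 to 0.21; exact permutation p = 0.162). Without control 4 Cd209a no longer passed the filter, and a fit with no filter gave -0.53 (SE 0.62).

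Ccr7 (ENSMUSG00000037944) encodes the receptor for CCL19 and CCL21 that leads mature dendritic cells to the lymph node, and naive T cells carry it too. Its level was 3.23 CPM at the lowest, 7.05 at the median and 24.2 at the highest in control, and 2.35, 5.76 and 11.9 CPM in cryoablation. The highest tumor, control 4, lay away from the other controls, and the groups overlapped. For Ccr7 the log2 fold change was -0.43 (SE 0.38, 95% interval -1.23 to 0.37; exact permutation p = 0.335). Without control 4 it was -0.07 (SE 0.32). Without cryoablation 2, 4 and 5 it was -1.06 (SE 0.41, edgeR adjusted p = 0.941), and without those and control 4 it was -0.69 (SE 0.28, edgeR adjusted p = 0.982).

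Ccl22 (ENSMUSG00000031779) encodes a chemokine of mature dendritic cells and macrophages that attracts CCR4-bearing cells such as regulatory T cells. Its level was 4.54 CPM at the lowest, 10.0 at the median and 53.2 at the highest in control, and 2.89, 10.2 and 25.5 CPM in cryoablation. The medians of the groups were alike, and control 4 alone was 5.37 times the median of the other controls. The log2 fold change was -0.51 (SE 0.47, 95% interval -1.50 to 0.49; exact permutation p = 0.368). It was -0.01 (SE 0.39) without control 4 and -1.24 (SE 0.53, edgeR adjusted p = 0.941) without cryoablation 2, 4 and 5.

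Fscn1 (ENSMUSG00000029581) encodes fascin, which bundles actin in mature dendritic cells and is also made by many tumor and stromal cells. Its level ran from 257 to 411 CPM in control (median 296) and from 257 to 427 CPM in cryoablation (median 310). The groups covered nearly the same range, with a coefficient of variation of 14.9% in control and 17.3% in cryoablation, the lowest of the 10 genes. The log2 fold change was 0.05 (SE 0.11, 95% interval -0.19 to 0.28; exact permutation p = 0.703), the narrowest interval of the 10. Leaving out cryoablation 5 or cryoablation 2, 4 and 5 turned its sign, to -0.03 and -0.05.

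**Figure D2:**
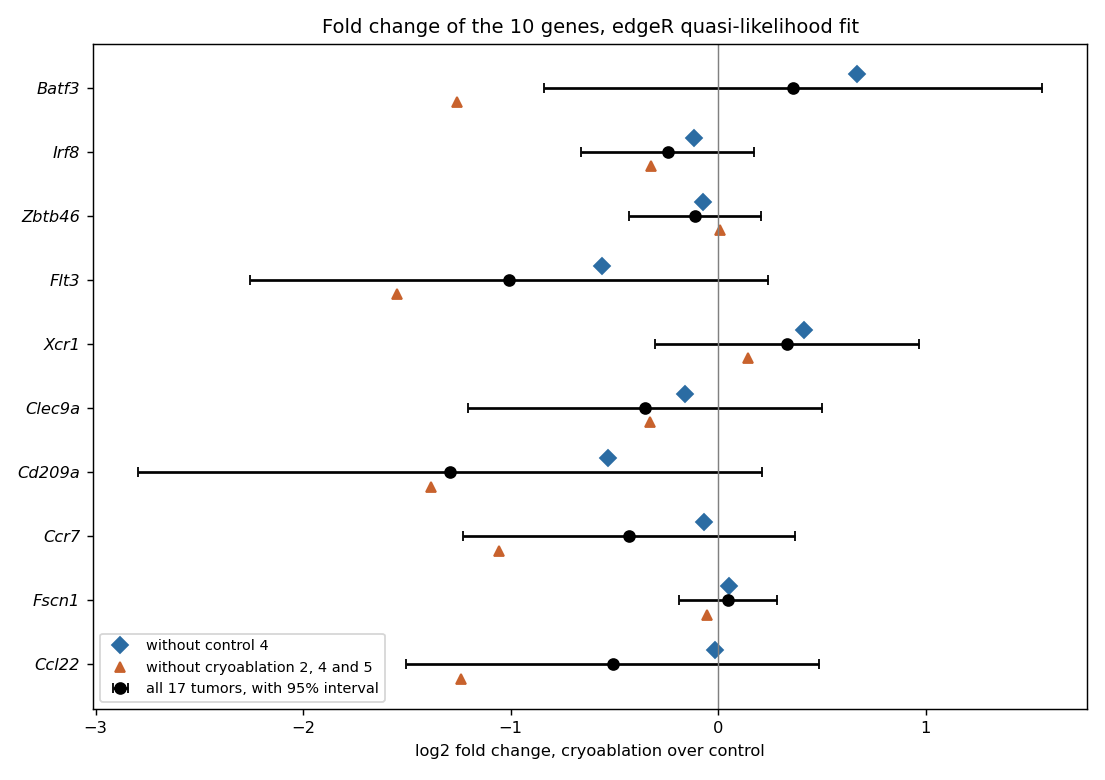
Log2 fold change of cryoablation over control (x axis) for each of the 10 genes (y axis) from edgeR's quasi-likelihood fit, with the 95% interval over all 17 tumors (black), and without control 4 (blue diamonds, Cd209a fitted without the filter) or without cryoablation 2, 4 and 5 (orange triangles). All 10 intervals include 0, and the triangle of Batf3, at -1.26, lies on the other side of 0 from its black point at 0.36.

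Control 4 was the tumor with the most of these genes. It was the highest of 17 tumors for 6 genes, Irf8, Ccl22, Ccr7, Clec9a, Cd209a and Flt3, and the second for Batf3 and Zbtb46. Its level over the median of the other 8 controls was 9.88-fold for Cd209a, 5.37-fold for Ccl22, 4.92-fold for Flt3, 3.50-fold for Ccr7 and 2.94-fold for Batf3, and 1.13-fold for Fscn1. Markers of other leukocytes were also high in it, at 2.92-fold for the summed T cell list, 2.32-fold for NK cells, 3.29-fold for B cells and lymph node tissue, and 2.75-fold for neutrophils. Macrophages were 1.39-fold and were not the highest. Without control 4, Flt3, Clec9a, Irf8, Ccr7, Ccl22 and Zbtb46 kept log2 fold changes below 0, between -0.56 and -0.01. The part of these other cells in the result was not tested.

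Compared per length, in the FPKM that the authors deposited, Fscn1 was the most abundant, with a median of 101 FPKM over 17 tumors. Irf8 followed at 9.08, Ccl22 at 4.55, Ccr7 at 3.29, Batf3 at 1.46 and Zbtb46 at 1.26 FPKM. The receptors Xcr1, Clec9a, Cd209a and Flt3 lay lowest, at 0.458, 0.405, 0.354 and 0.192 FPKM. In this order the neighbors Batf3 and Zbtb46, Xcr1 and Clec9a, and Clec9a and Cd209a did not differ beyond the spread of their ratio across tumors (1 SD). Fscn1 exceeded Irf8 in 17 of 17 tumors.

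How the 10 genes varied together was asked over the 17 tumors, in 45 pairs on log2 CPM, with 100000 permutations per pair. Of these, 36 correlations were positive, 20 had a Pearson p under 0.05 and 16 passed after Benjamini-Hochberg adjustment over the 45 pairs. Ccr7 and Ccl22 formed the tightest pair, with Pearson's r = 0.948 (permutation p = 1e-05, the smallest possible, adjusted 0.00045) and Spearman's rho = 0.890 (adjusted 0.0009). It was 0.893 without the 2 tumors farthest from the median of Ccr7, 0.929 in control alone, 0.960 in cryoablation alone and 0.921 without control 4. Among all 13004 other genes tested, Ccl22 was the gene most alike to Ccr7, and Ccr7 the gene most alike to Ccl22.

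The highest correlations of Batf3 within the 10 were with the mature dendritic cell genes Ccr7 and Ccl22. Its r was 0.832 with Ccr7 (permutation p = 4e-05, adjusted 0.00045, rho 0.816, adjusted 0.00337) and 0.811 with Ccl22 (permutation p = 4e-05, adjusted 0.00045, rho 0.787, adjusted 0.00382), against 0.329 with Xcr1 and 0.154 with Clec9a. The difference between these correlations was not tested. Without the 2 farthest tumors both of the first were 0.853. Batf3 and Clec9a had r = 0.750 in control and -0.115 in cryoablation, where cryoablation 4 held the most Batf3 and the least Clec9a.

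Flt3 correlated with Ccr7 at r = 0.847 (permutation p = 2e-05, adjusted 0.00045, rho 0.779, adjusted 0.00382) and with Cd209a at 0.818 (permutation p = 0.00012, adjusted 0.00108, rho 0.743, adjusted 0.0078). Irf8 correlated with Clec9a at 0.786 (permutation p = 0.0002, adjusted 0.00129, rho 0.689, adjusted 0.0188) and with Flt3 at 0.734 (permutation p = 0.0008, adjusted 0.0036, rho 0.782, adjusted 0.00414). Without the 2 tumors farthest from the median these were 0.750, 0.767, 0.717 and 0.592.

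Xcr1 and Clec9a, both cDC1 receptors, had r = 0.244 (permutation p = 0.345, adjusted 0.431, rho 0.395, adjusted 0.187). It was 0.751 in control and 0.0806 in cryoablation, and the difference between groups was not tested. Leaving Fscn1 aside, the median r of the other 36 pairs was 0.765 in control and 0.367 in cryoablation, a difference that was not tested either.

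Fscn1 stood apart from the rest. Its 9 correlations ranged from -0.66 with Zbtb46 (permutation p = 0.00371, adjusted 0.0119, rho -0.613, adjusted 0.0329, r -0.664 without the 2 farthest tumors) to 0.367 with Batf3, and 6 of the 9 were negative. With Ccr7, its partner in mature dendritic cells, r was 0.229 (permutation p = 0.376, adjusted 0.457, rho 0.191). After each gene's dependence on the short-gene index was removed, Zbtb46 and Fscn1 had r = -0.278 and Ccr7 and Ccl22 had 0.937.

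**Figure D3:**
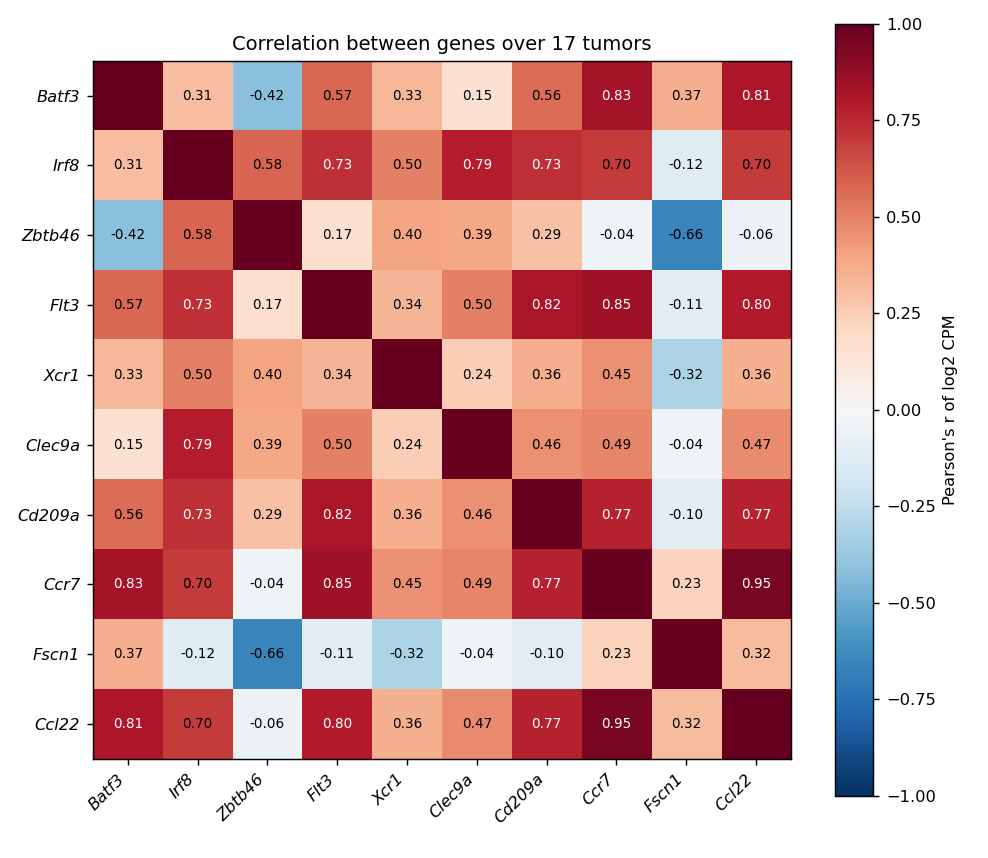
Pearson's r of log2 CPM over 17 tumors for each pair of the 10 genes (rows and columns), from -1 (blue) to 1 (red), with the value in each cell. Ccr7 and Ccl22 reach 0.948, and the Fscn1 row runs from -0.66 with Zbtb46 to 0.367 with Batf3.

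**Figure D4:**
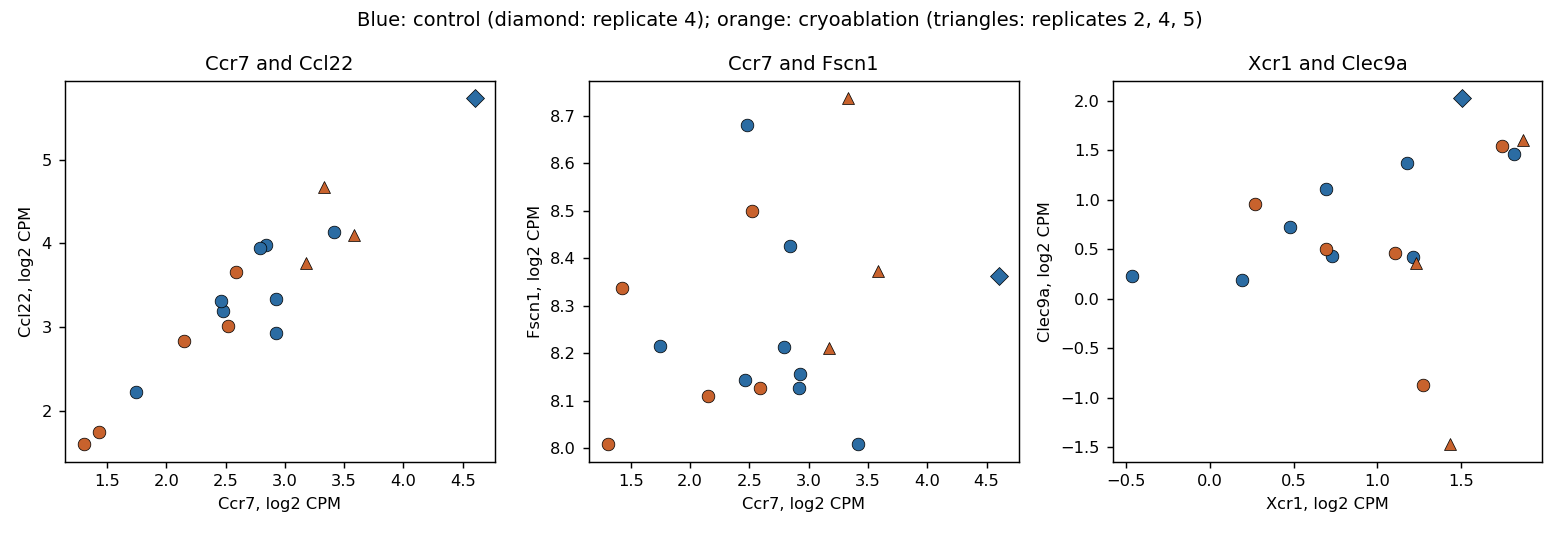
Log2 CPM of Ccl22 against Ccr7 (left), Fscn1 against Ccr7 (middle) and Clec9a against Xcr1 (right), 1 point per tumor, with 9 control in blue and 8 cryoablation in orange. Ccl22 follows Ccr7 in both groups (r = 0.948), Fscn1 does not (0.229), and in the right panel cryoablation 4 and 7 lie at the bottom, with little Clec9a for their Xcr1.

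The short-gene index itself was related to 3 of the 10 genes, in 10 relations tested with adjustment over them. For Batf3, r was 0.696 (permutation p = 0.00214, adjusted 0.00713, rho 0.667), with 0.418 in control and 0.861 in cryoablation. For Zbtb46 it was -0.705 (permutation p = 0.00171, adjusted 0.00713, rho -0.706), with -0.781 and -0.715. For Fscn1 it was 0.751 (permutation p = 0.00072, adjusted 0.00713, rho 0.787), with 0.838 and 0.744. Without cryoablation 2 and 5, the 2 tumors farthest from the median of the index, these were 0.598, -0.773 and 0.658. For the other 7 genes, r over all tumors lay between -0.179 and 0.439 and the smallest adjusted p was 0.195. Of these 7, Ccr7 and Ccl22 had the highest r within cryoablation, 0.81 and 0.755, against 0.0395 and 0.198 in control. The difference between groups was not tested. Among the genes under 2000 bases, Batf3 (1597 bases) had the r above while Cd209a (1583) and Ccr7 (1978) had -0.0451 and 0.408. Among those over 6000 bases, Zbtb46 (8508) had the r above while Irf8 (7055) and Flt3 (6176) had -0.11 and 0.038. Fscn1, at 3012 bases, lay between these limits.

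**Figure D5:**
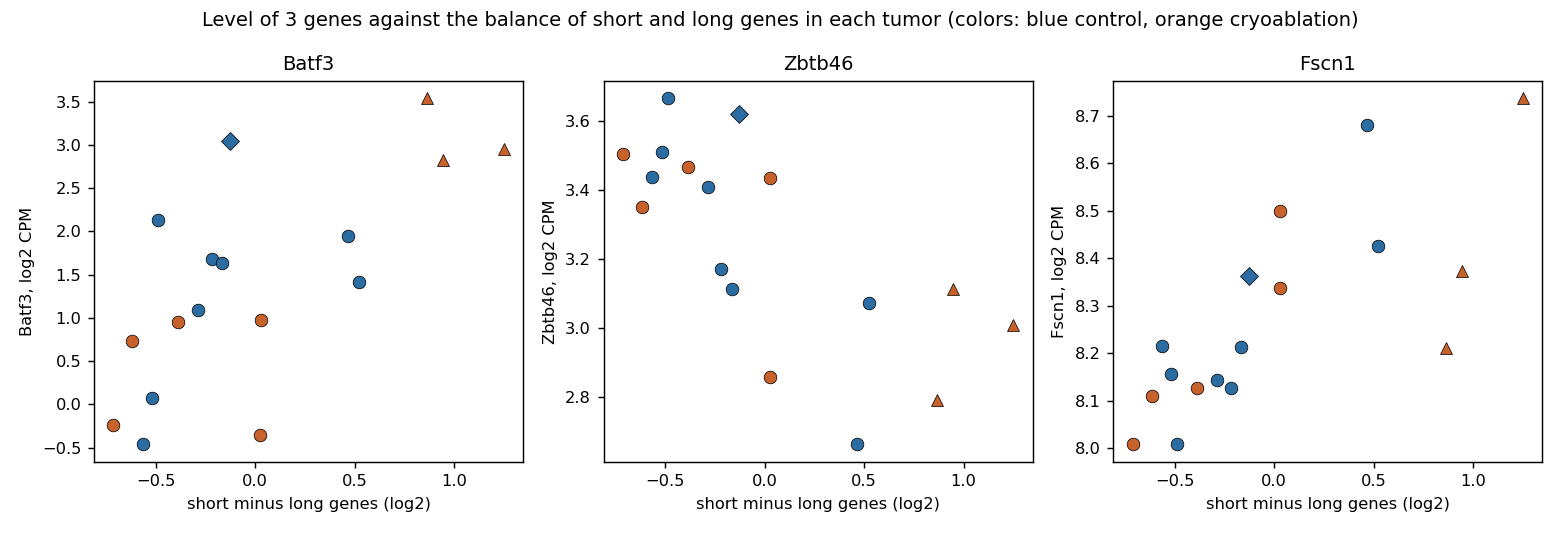
Log2 CPM of Batf3 (left), Zbtb46 (middle) and Fscn1 (right) against the short-gene index of each tumor (x axis, log2), 1 point per tumor, with control in blue, cryoablation in orange, control 4 as a diamond and cryoablation 2, 4 and 5 as triangles. Batf3 and Fscn1 are higher and Zbtb46 lower toward the right, with r = 0.696, 0.751 and -0.705.

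The genes most alike to each of the 10 were found by Pearson's r of log2 CPM over 17 tumors, among 13004 others. For Irf8 they were Slamf8 (0.960), Cxcl9 (0.948) and Icos (0.938). Flt3 was closest to Dnase1l3 (0.889), Slfn5 (0.875) and Crtam (0.875), and Cd209a to Slfn5 (0.919), Col14a1 (0.906) and Ptafr (0.905). Clec9a was closest to Nckap1l (0.895), Gfi1 (0.872) and Lat2 (0.864), and Xcr1 to Tnfrsf9 (0.803), Nr4a3 (0.781) and Serpina3i (0.775). After Ccl22, Ccr7 was closest to Septin1 (0.934) and Zap70 (0.930), and Ccl22, after Ccr7, to Klrb1b (0.909) and Slfn2 (0.906). Batf3 was closest to Spint2 (0.935), Ppt2 (0.924) and Il2rg (0.923), and Zbtb46 to Tmed8 (0.910), C1rl (0.891) and Ncoa7 (0.890). For Fscn1 they were Sec13 (0.942), Psmd6 (0.938) and Ubtd1 (0.937), with no other member of the 10 among the leading 3.

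The wider dendritic cell program was read from 6 lists with 74 genes, the 10 included where they belong. Of these, 65 were tested, 41 had a log2 fold change below 0 and 24 above, and 0 passed the adjusted threshold in edgeR. At an unadjusted p under 0.05 there were 4 (6.15%, beside 4.91% of all genes), namely Il12b, Samsn1, Ccr9 and Tcf4. The first 3 were lower in cryoablation, where 1.17% of all genes were lower at that threshold, and Tcf4 was higher, where 3.74% were.

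Il12b, the p40 chain of IL-12 made by activated dendritic cells, had 0.536, 0.971 and 7.77 CPM at the lowest, median and highest in control and 0.298, 0.805 and 1.97 in cryoablation. Its log2 fold change was -1.14 (SE 0.53, edgeR p = 0.0459, exact permutation p = 0.149), and without control 4 it was -0.53 (SE 0.41). Samsn1, an adaptor of mature dendritic cells and lymphocytes, had -0.50 (SE 0.24, edgeR p = 0.0477, exact permutation p = 0.0800), and -0.29 (SE 0.19) without control 4. Both were highest in control 4.

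Ccr9, a homing receptor of plasmacytoid dendritic cells and T cells, had -1.03 (SE 0.35, edgeR p = 0.00839, adjusted p = 0.728, exact permutation p = 0.0156). Its level was near the floor, with 4 to 33 counts. It ran from 0.238 to 2.135 CPM in control (median 0.843) and from 0.241 to 0.772 CPM in cryoablation (median 0.404). Without control 4 Ccr9 no longer passed the filter, and a fit with no filter gave -0.78 (SE 0.32). Tcf4, the factor that specifies plasmacytoid dendritic cells and is also widespread in stroma, ran from 86.1 to 110 CPM in control (median 97.2) and from 98.5 to 188 in cryoablation (median 113). Its log2 fold change was 0.36 (SE 0.12, edgeR p = 0.00677, adjusted p = 0.728, exact permutation p = 0.00362). Without cryoablation 2, 4 and 5 it was 0.11 (SE 0.07).

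Among the 16 cDC1 genes, 15 were tested, 10 lay below 0 and 0 had an unadjusted p under 0.05, with a median of -0.17. Without control 4 that median was -0.04. The lowest was Itgae, the CD103 integrin chain of cDC1 and of some T cells, at -0.46 (SE 0.27, exact permutation p = 0.143) and at -0.28 without control 4. The highest was Snx22 at 0.51 (SE 0.42, exact permutation p = 0.375), which was -0.34 without cryoablation 2, 4 and 5. The list of cDC2 and monocyte-derived cells had 9 of 10 genes tested, 7 below 0 and a median of -0.16. It ran from Cd209a at -1.29 to the lectin gene Clec4a2 at 0.22 (SE 0.27, exact permutation p = 0.673), which was -0.30 without those 3 tumors. Without control 4, Cd209a was not tested and the middle values of this list were -0.09 and -0.05. Of 22 genes of mature and migratory cells, 21 were tested and 15 lay below 0, with a median of -0.19. Without control 4 that median was -0.02. With all tumors these genes ran from Il12b at -1.14 to Ccl17 at 0.42, which is described with the ligands.

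The shared conventional list had 8 of 9 genes tested, 4 below 0 and a median of 0.08. It ran from Flt3 at -1.01 to H2-Aa, an MHC class II chain that macrophages and B cells share, at 0.47 (SE 0.31, exact permutation p = 0.451) and at -0.15 without cryoablation 2, 4 and 5. The plasmacytoid list had 9 of 10 tested, 4 below 0 and a median of 0.23, from Ccr9 at -1.03 to Ly6d at 0.98 (SE 0.77, exact permutation p = 0.649). Ly6d was -0.51 without those 3 tumors and -1.12 with limma voom. Without cryoablation 2, 4 and 5 the medians of all 6 lists lay below 0, from -0.47 for the plasmacytoid to -0.22 for the shared list. Without control 4 the cDC1, cDC2 and mature lists moved the other way, as given above.

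The ligands and partners of these receptors were mostly sparse. Of 8, 4 were tested, with a median of 0.22. Without cryoablation 2, 4 and 5, where Csf2 passed the filter as well, the median was -0.40. Flt3l, the ligand of FLT3, had a median of 7.21 CPM in control and 6.27 in cryoablation, with a log2 fold change of 0.03 (SE 0.16, exact permutation p = 0.813) and of -0.14 without those 3 tumors. Xcl1, the ligand of XCR1, had 0.62 (SE 0.47, exact permutation p = 0.853), Ccl17, which shares the receptor CCR4 with CCL22, 0.42 (SE 0.56, exact permutation p = 0.998), and Csf2rb -0.48 (SE 0.25, exact permutation p = 0.176). Without cryoablation 2, 4 and 5, Xcl1 was -0.88 (SE 0.30) and Ccl17 -1.21 (SE 0.49), and limma voom gave -0.73 and -0.34. Csf2rb was -0.27 without control 4. Over all tumors, Ccl19, Ccl21a, Ccr4 and Csf2 did not pass the filter, and they had at most 21 counts in any tumor.

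Markers of other cell types were read beside these genes, since macrophages, monocytes and lymphocytes share several of them. The macrophage list (10 of 10 tested) had 5 genes below 0 and a median log2 fold change of 0.07, with Adgre1 at -0.69 (SE 0.29, edgeR p = 0.0290, exact permutation p = 0.0465). Adgre1 reached 239 CPM in control 4, where the control median was 59.8, and without that tumor it was -0.28 (SE 0.14). The list's summed level was 1415 to 3827 CPM in control and 1223 to 8062 CPM in cryoablation. All 6 monocyte genes lay below 0, with a median of -0.40 and 0 at an unadjusted p under 0.05, and their summed level was 1074 to 2224 against 805 to 1878 CPM. Without control 4, Ccr2 was at 0.25, Plac8 at -0.01 and Ly6c2 at -0.03. Chil3, F13a1 and Fn1 were then at -0.95, -0.24 and -0.19. The T cell list (7 of 7 tested, 4 below 0) summed to 27.6 to 141 CPM in control and 21.5 to 103 CPM in cryoablation, and the NK cell list (4 of 4, 3 below 0) to 9.43 to 32.2 against 9.22 to 21.1 CPM. B cell and lymph node genes were near the floor, with 3 of 8 tested and sums of 1.70 to 10.7 and 0.656 to 5.02 CPM. The list for all leukocytes (5 of 5 tested, 3 below 0) had a median of -0.13 and sums of 328 to 970 and 264 to 695 CPM.

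Neutrophil genes (5 of 7 tested) had 2 at an unadjusted p under 0.05, both higher in cryoablation, where 3.74% of all genes were higher at that threshold. They were S100a8 at 1.34 (SE 0.53, exact permutation p = 0.0554) and S100a9 at 1.605 (SE 0.65, exact permutation p = 0.127). Limma voom gave 0.52 (SE 0.50) and 0.22 (SE 0.75) for them. Csf3r was the 1 gene of this list below 0, at -0.51. The list had sums of 40.2 to 152 and 64.6 to 116 CPM, and Ly6g had 3 counts or fewer in every tumor. The list for Langerhans cells and epidermis, which skin near a subcutaneous tumor could bring, had 4 of 5 tested, all above 0. The untested gene was the Langerhans cell marker Cd207, with at most 4 counts in any tumor. Krt10 was at 0.73 (SE 0.26, edgeR p = 0.0106, exact permutation p = 0.0285) and at 0.14 without cryoablation 2, 4 and 5. In that setting Epcam, Krt5 and Krt14 were at -0.04, -1.01 and -0.37. The list had sums of 184 to 445 and 207 to 667 CPM, and Krt14 alone had 180 to 439 and 202 to 652 CPM. Epithelial genes (4 of 5 tested, 3 above 0) summed to 15.7 to 89.4 CPM in control and 9.22 to 210 CPM in cryoablation. Without cryoablation 2, 4 and 5 all 4 lay below 0, Krt8 at -0.73, Krt18 at -0.32, Krt19 at -0.36 and Cdh1 at -0.38. Cdx2, a defining factor of colon epithelium, was at 0 in all tumors. The part of these cells in the levels of the 10 genes was not tested.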

How the data were processed

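RNA sequencing of distant MC38 tumors, 9 control and 8 cryoablation, was analysed, with groups taken from the deposited labels. mRNA captured on beads was fragmented and read on a NovaSeq instrument. The aligner, counting program and strandedness are not given in the sources used here, and the submitters' processing notes list GRCm38 and mm10. The authors deposited raw read counts per gene, with no normalization, and FPKM, which equalled count over listed length and total for 260739 of 260739 values (tolerance 1e-06). Of 21827 genes shared with GENCODE release M21, 512 have the same listed position, and no gene position is printed. Promoters are RefSeq's.

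Counts were tested with edgeR 4.0.16 (TMM, filterByExpr by group, quasi-likelihood F test, group as the only term), as the study's methods name edgeR (its results text names DESeq), with Benjamini-Hochberg adjustment over 13005 genes. Standard errors are log2 fold changes over the square root of F. Permutation tests were two-sided and exact over all 24310 assignments of the 17 tumors (smallest p 4.11e-05). They compared the group means of log2 CPM, so their p values do not belong to the edgeR fold changes printed beside them. They and the correlations used log2 CPM with a prior count of 2. Alternatives were DESeq2 1.42.0, limma 3.58.1 voom, the exact test, upper-quartile scaling, other filters, a replicate block, a gene length offset (natural spline, 4 degrees of freedom) and tumors left out. Scripts were tested on simulated data. The tumors' depth limits precision for genes near the floor of 3 counts, which covers counting error only. No pair of tumors had identical counts.

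The genes named are the 10, the list genes with the lowest and highest log2 fold change or an unadjusted p under 0.05, and the 3 genes most alike to each of the 10. The remaining ligands and partners and single markers of other cells were named after their values were seen. The 10 genes, lists and rules were chosen with earlier results of these data known.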

Additional observations from a re-analysis of the deposited data

Results flagged for a closer look

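Within each group of tumors, the highest or lowest CPM of each of the 10 genes was compared with its nearest neighbor by Dixon's criterion at the 95% level. Chance gives about 1 in 20 only for independent groups of normal values. CPM were used without a log and these genes were correlated, so no excess over chance is read from the count. Of 20 groups, 6 had a tumor far from the others. In 5 of the 6 it was control 4, at 8.09 CPM for Batf3, 5.89 for Flt3, 6.47 for Cd209a, 24.2 for Ccr7 and 53.2 for Ccl22. The summed levels of T cell, NK cell, B cell, neutrophil and monocyte markers were also highest in that tumor. The sixth was cryoablation 3, at 1.97 CPM for Cd209a. The cause was not tested.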

How the results depend on the processing

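Of 255 values recomputed for the 10 genes under 26 alternatives, 249 kept their direction, and no gene passed the adjusted threshold in any of them. Batf3 turned to -0.68 with limma voom, to -1.26 without cryoablation 2, 4 and 5, and to between -0.082 and 0.67 with single tumors left out. Zbtb46 turned to 0.0075 and Fscn1 to -0.052 without those 3 tumors, and Fscn1 ran from -0.025 to 0.11 with single tumors left out. Leaving out control 4 as well, chosen after seeing the data, gave -0.94 for Batf3, 0.049 for Zbtb46 and -0.040 for Fscn1, and 2 of the 10 genes at an unadjusted p under 0.05.

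At that threshold the 10 genes numbered 0 as reported, 3 with limma voom, 3 without cryoablation 2, 4 and 5, and 0 to 1 with single tumors left out. The lists' genes numbered 4 as reported, 10 with voom, 9 without the 3 tumors and 1 to 8 with single tumors left out. Over all genes, 639 became 1024 with DESeq2 on 17819 genes with no filter (881 on the 13005 filtered genes, chosen after seeing the data), 1312 with voom, 992 with no filter, 325 without the 3 tumors and 252 to 1388 with single tumors left out. The plasmacytoid list median of 0.23 became -0.64 with voom and -0.47 without the 3 tumors. The ligand list median of 0.22 became -0.16 with unfiltered DESeq2 (0.24 filtered), -0.35 with voom, -0.19 with no filter, -0.26 with the length offset and -0.40 without the 3 tumors. Cd209a passed the filter in 12 of 17 fits that left out a tumor.

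With the replicate number as a block (8 pairs), 439 genes and 0 of the 10 had an unadjusted p under 0.05. Same-numbered tumors correlated between -0.51 and 0.642 (median 0.104), and 2 of 8 correlated best with their own number, so the numbers were not taken to pair tumors.

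Of the 45 correlations, 20 had a p under 0.05 as reported, 18 with a prior count of 0.5 and 20 with upper-quartile scaling. Chosen after seeing the data, leaving out control 4 gave 17, leaving out the 3 tumors 26 and removing the short-gene index 23. Counts near the floor limit what can be shown for Flt3, Clec9a and Cd209a.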
